A study of Populus alba x Populus glandulosa with 18 samples.

Results

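In roots of 84K poplar, 55 gene IDs differed from wild type in both lines that had lost bHLH58 and stayed close to wild type in the line that had lost bHLH151 alone. They are 55 of 40951 IDs tested, and 38 of them stood above wild type (the higher members) while 17 stood below it (the lower members). An ID was a member if its group mean of log2(FPKM + 1) lay at least 0.7 from that of wild type, on the same side, in bhlh58-KO and in bhlh58/151-KO, and less than 0.3 from it in bhlh151-KO. FPKM is a fragment count corrected for the length of the transcript and the size of the library. An ID was tested if 3 or more of the 18 libraries held 1 FPKM or more of it. The members were chosen by the measured WT, bhlh58-KO, double-knockout and bhlh151-KO values, so the differences of these groups from WT are a description, with no test.

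84K, a hybrid clone of Populus alba x Populus glandulosa, is widely used for making transgenic poplars. The 18 RNA-seq libraries were made from root tissue and form 6 groups of 3. These are the wild type (WT), bhlh58-KO (line 6), bhlh151-KO (line 40), bhlh58/151-KO (line 32, the double knockout), bHLH58-OE (line 20) and bHLH151-OE (line 17). KO stands for a knockout and OE for an overexpression line. Each genotype is 1 line, so a change particular to a line cannot be told apart from a change due to its genotype. The mutations carried by the knockouts, the promoter of the overexpression constructs and the age of the plants were not stated in the labels. Nor do they tell if a group's 3 libraries are from different plants, and p-values therefore measure only the spread between these libraries, which may be technical.

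Basic helix-loop-helix (bHLH) proteins are a large family of plant transcription factors. The basic stretch contacts DNA and the helix-loop-helix stretch joins a pair of such proteins, so family members can act as homodimers or as heterodimers with one another. In Arabidopsis roots, members of the family are known for their part in root hair formation and in the response to iron shortage. A double knockout of a pair of such factors is a common way to ask which genes depend on one of them, on the other, or on either. The deposited table does not pair its IDs with gene names, so no function is given for any ID here, and bHLH58 and bHLH151 themselves were not examined. For the same reason the root label was not checked against root or leaf markers: 0 of 20 symbols looked up matched an ID.

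Libraries of a group lay close together, with Pearson correlations of log2 values over genes of 0.981 to 0.987 within groups and 0.918 to 0.978 between groups. Library depth is unknown, and between 36450 and 38499 IDs reached 1 FPKM in a library. In bulk tissue, fewer cells of a type and less RNA per cell cannot be told apart.

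The members are a small share of the IDs that lay away from WT in both bHLH58-loss lines. In bhlh58-KO, 1854 of the IDs tested lay at least 0.7 from WT on the log2 scale. In the double knockout 2356 did, and 1006 did so on the same side in both. In bhlh151-KO, 2845 IDs lay at least 0.7 above WT and 3648 at least 0.7 below it. Of these 1006 IDs, 809 (80.4%) were also at least 0.7 from WT on that side in bhlh151-KO, and 126 (12.5%) lay between 0.3 and 0.7 from it. The 55 members make up 5.47%, and 16 IDs lay at least 0.3 on the opposite side in bhlh151-KO. In the mirror case, 1658 IDs lay at least 0.7 from WT on the same side in bhlh151-KO and the double knockout. Of these, 170 lay under 0.3 from it in bhlh58-KO. All these comparisons share the 3 WT libraries.

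**Figure D1:**
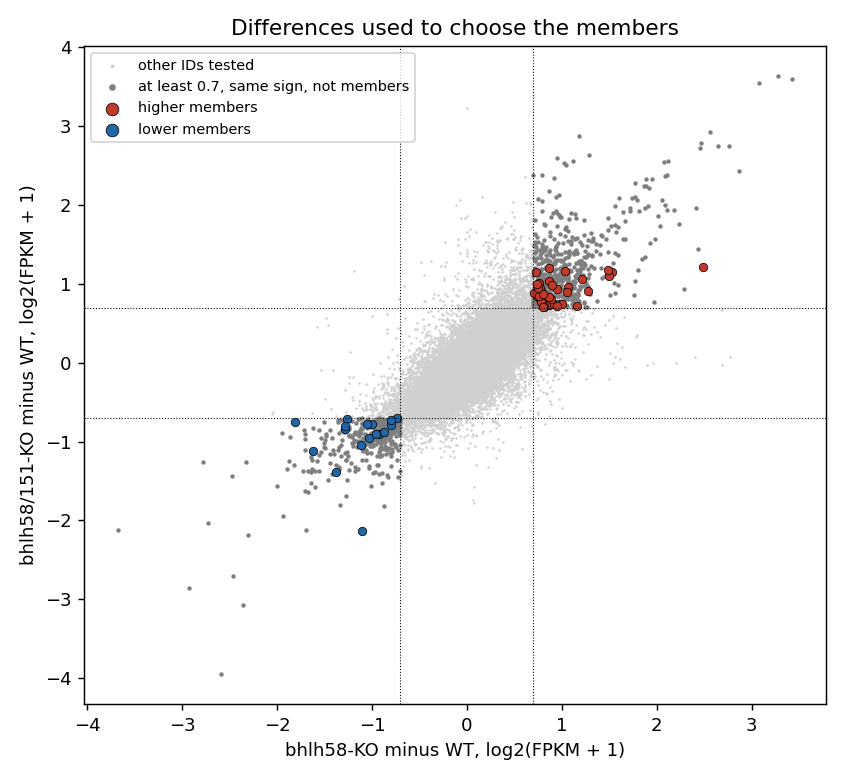
Difference from WT in bhlh58-KO (x axis) and in the double knockout (y axis), both as log2(FPKM + 1), for 40951 IDs; dotted lines mark 0.7 and coloured points are the 38 higher (red) and 17 lower (blue) members. Most members lie close to the dotted lines, while the IDs that moved most in both knockouts are grey, because bhlh151-KO moved them too.

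Most members sat close to the limits of the rule. The smaller of the 2 knockout differences was between 0.7 and 0.8 for 29 of the 55 members, and 50 further IDs would have entered at a limit of 0.6. Just inside, PAxG01Ag0010300 differed by -0.7011 in the double knockout, and just outside, NewGene_1503 differed by -0.6995 in bhlh58-KO. At the limit for bhlh151-KO, PAxG01Ag0295200 was inside with a difference of 0.296 and PAxG13Ag0035000 outside with -0.3024. A difference of at least 1.0 in both knockouts was seen for 6 higher and 4 lower members.

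The choice of members depended on the scale and on single libraries. With a pseudocount of 0.1 in place of 1, 119 IDs met the rule, of which 34 were among the 55. After median-of-ratios scaling 40 did, with 35 among the 55, and after quantile normalization 46 did, with 30 among the 55. Leaving out any 1 of the 12 WT and knockout libraries gave 49 to 61 IDs, and 13 of the 55 members (10 higher, 3 lower) met the rule in each of these 12 cases.

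**Figure D2:**
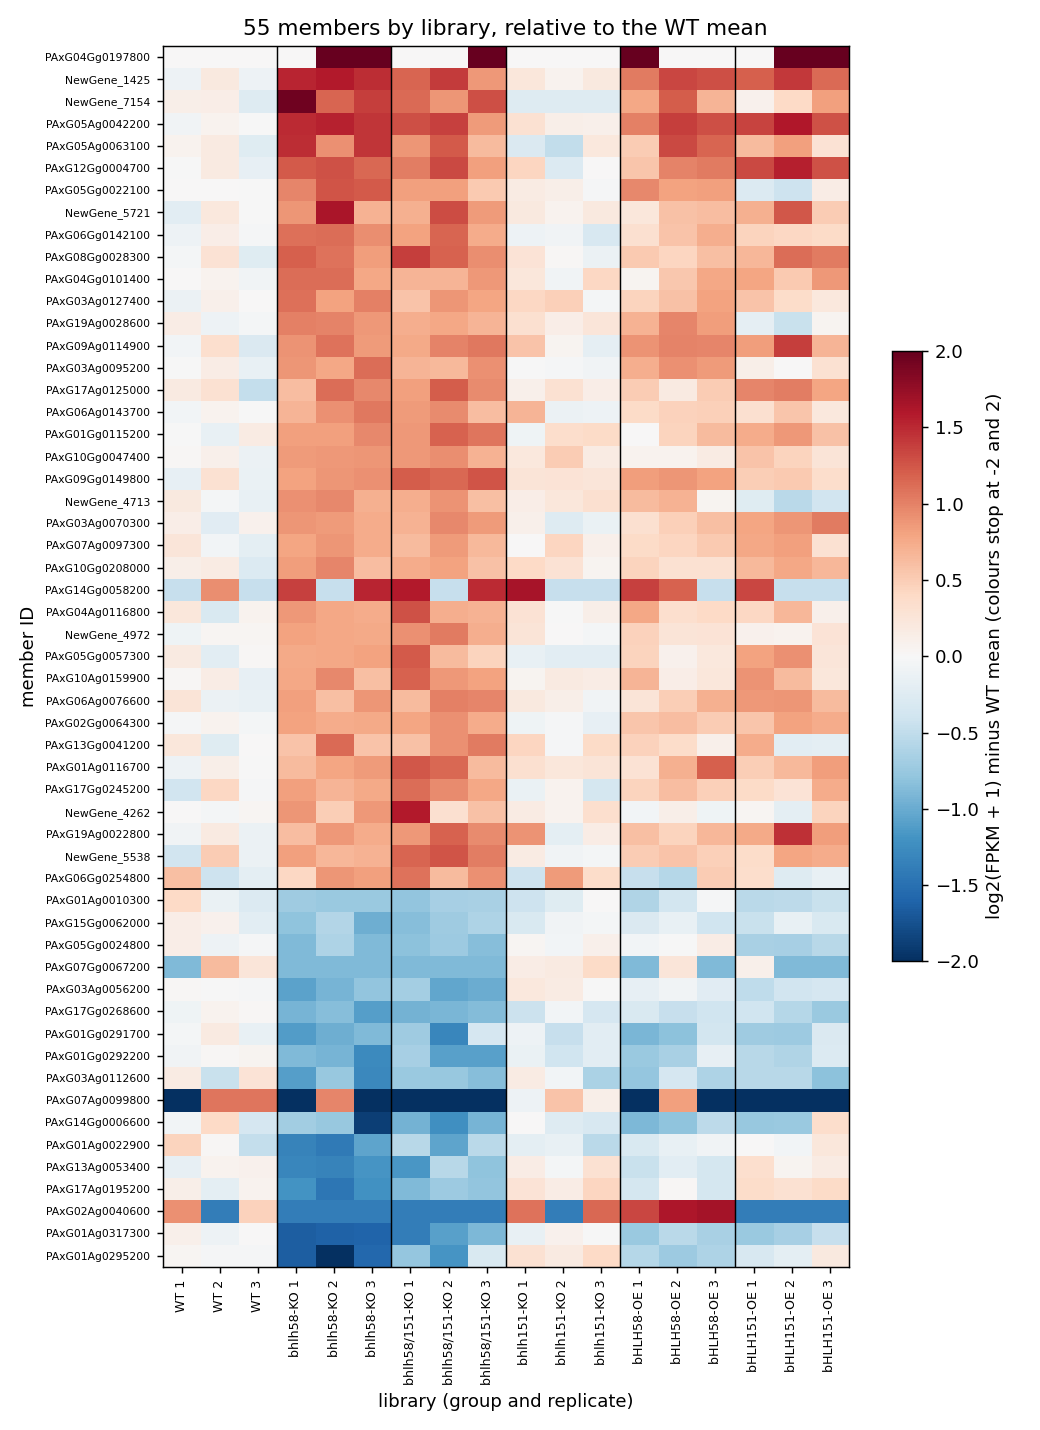
Each row is a member and each column a library, coloured by log2(FPKM + 1) minus the WT mean of that ID (colours stop at -2 and 2); the black horizontal line parts the 38 higher from the 17 lower members. Both bHLH58-loss lines are coloured in most rows, bhlh151-KO is mostly pale, and the 2 overexpression lines mostly share the colour of the bHLH58-loss lines.

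The higher members were mostly of low to middling level. Their median group mean was 1.81 FPKM in WT and 2.20 in bhlh151-KO, beside 4.30 in bhlh58-KO and 4.10 in the double knockout. It was 3.39 in bHLH58-OE and 3.01 in bHLH151-OE. The highest group mean ran from 102 FPKM in WT to 269 in bHLH151-OE. Of the 38, 10 were under 1 FPKM in every WT library and so passed the filter on low values only through groups in which they were higher. The filter decided no member, since the same 55 IDs met the rule without it.

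PAxG05Ag0042200 and NewGene_1425 had the largest smaller knockout difference among higher members that averaged at least 5 FPKM in both bHLH58-loss lines and did not overlap WT there. PAxG05Ag0042200 was at 59.2, 65.1 and 61.7 FPKM in WT and at 77.2, 67.2 and 66.2 in bhlh151-KO. It reached 177, 181 and 169 FPKM in bhlh58-KO and 153, 161 and 113 in the double knockout. The lowest double-knockout library was thus still above every WT and bhlh151-KO library. Its overexpression libraries were at 125, 163 and 153 FPKM in bHLH58-OE, wholly below bhlh58-KO, and at 159, 190 and 152 in bHLH151-OE. On the log2 scale it differed from WT by 1.49 in bhlh58-KO and 1.17 in the double knockout, but by 0.17 in bhlh151-KO.

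NewGene_1425 followed the same order of groups. It stood at 45.5, 55.9 and 45.6 FPKM in WT and 57.2, 51.5 and 56.0 in bhlh151-KO, against 143, 149 and 138 in bhlh58-KO and 111, 130 and 89.8 in the double knockout. In bHLH58-OE it was at 101, 125 and 120 FPKM and in bHLH151-OE at 113, 132 and 108. WT and bhlh151-KO overlapped, and each of the other 4 groups lay wholly above both.

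PAxG12Gg0004700 was the most abundant member. Its libraries read 101, 115 and 90.8 FPKM in WT, 240, 249 and 226 in bhlh58-KO, 208, 256 and 181 in the double knockout and 137, 83.6 and 103 in bhlh151-KO. In bHLH58-OE it was at 150, 203 and 210 FPKM, and in bHLH151-OE at 255, 302 and 249, the highest group mean of the 6. PAxG05Ag0042200 was the next in abundance.

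The lower members had a median group mean of 5.49 FPKM in WT and 4.86 in bhlh151-KO, beside 2.54 in bhlh58-KO and 2.69 in the double knockout. It was 6.14 in bHLH58-OE and 3.23 in bHLH151-OE. The median for bHLH58-OE is above that of WT, although 15 of the 17 lower members had a lower log2 mean in bHLH58-OE than in WT. PAxG03Ag0056200 was at 23.7, 23.3 and 23.1 FPKM in WT and 27.1, 26.2 and 23.3 in bhlh151-KO, and at 10.7, 11.8 and 13.1 in bhlh58-KO and 14.2, 10.9 and 11.3 in the double knockout. The 2 bHLH58-loss lines overlapped each other and lay wholly below WT and bhlh151-KO. Its bHLH58-OE libraries (20.6, 22.3 and 19.9 FPKM) were a little below WT, and those of bHLH151-OE (16.1, 17.6 and 18.3) were lower again.

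PAxG01Gg0292200 was at 15.1, 16.1 and 16.5 FPKM in WT, 8.11, 7.84 and 5.99 in bhlh58-KO, 9.64, 6.92 and 6.93 in the double knockout and 14.4, 11.8 and 13.6 in bhlh151-KO. The bhlh151-KO libraries lay between those of WT and the other knockouts, by a difference of -0.25 from WT that is close to the limit. PAxG17Ag0195200, the most abundant lower member, read 36.7, 29.5 and 35.6 FPKM in WT, 14.2, 11.8 and 14.0 in bhlh58-KO and 18.0, 20.0 and 19.1 in the double knockout. Unlike PAxG01Gg0292200, it was above WT in bhlh151-KO, at 41.0, 37.5 and 46.0 FPKM. PAxG01Gg0291700, the next in abundance, was at 29.2, 34.3 and 27.2 FPKM in WT, 13.3, 14.8 and 15.8 in bhlh58-KO and 18.1, 11.6 and 23.6 in the double knockout, and at 28.1, 21.5 and 25.9 in bhlh151-KO.

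**Figure D3:**
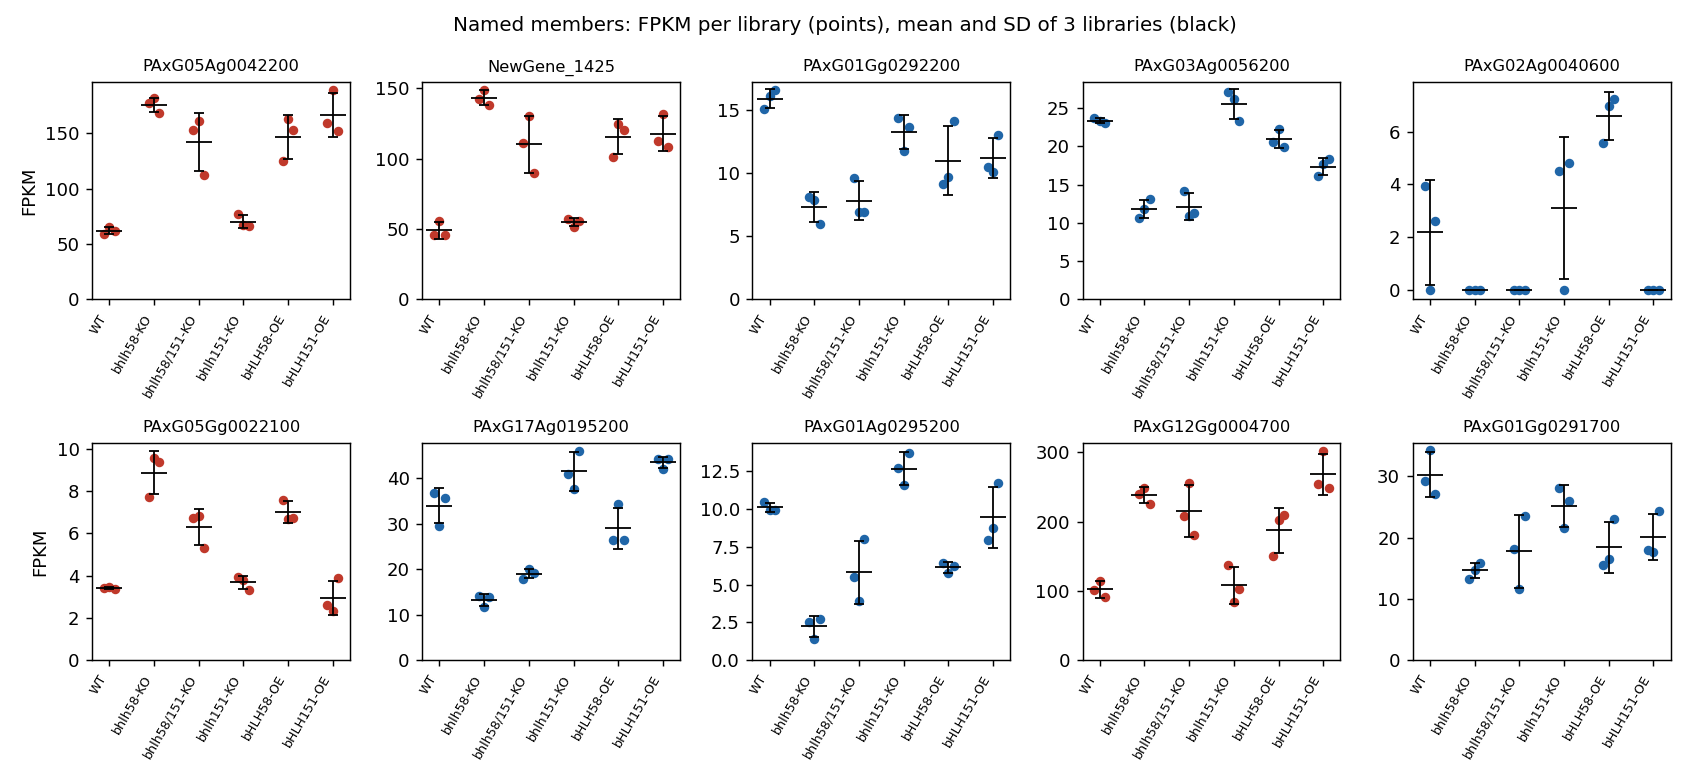
FPKM of the 10 members named by a fixed rule, with a point for each library and the mean and SD of 3 libraries in black; red marks higher and blue lower members. For PAxG05Ag0042200 and NewGene_1425, WT and bhlh151-KO sit at 70.2 FPKM or less on average while the other 4 groups average 110 or more.

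Of all members, 49 had both bHLH58-loss groups wholly outside the WT range, 35 higher and 14 lower. In bhlh58-KO alone these numbers were 35 of 38 above WT, where 21% of all IDs tested had a group wholly above WT, and 14 of 17 below it (17.8% of all IDs). In the double knockout they were 36 of 38 (17.6%) and 14 of 17 (26.4%). The rule used these contrasts, so nothing is read from the counts. In bhlh151-KO, 4 of 38 higher members lay wholly above WT (20.1% of all IDs) and 0 wholly below it (35.7%), while 2 of 17 lower members lay above and 1 below. The median difference of bhlh151-KO from WT was 0.15 for the higher and -0.02 for the lower members, beside -0.11 for all IDs tested. Under median-of-ratios scaling, which moved the last of these to 0.00, they were 0.25 and 0.10.

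A few members had a group in which every library was listed at 0. PAxG04Gg0197800 was listed at 0 in all WT and bhlh151-KO libraries, but also in bhlh58-KO replicate 1 and in double-knockout replicates 1 and 2. Its other libraries of these lines read 10.3 and 14.6 FPKM in bhlh58-KO and 11.6 in the double knockout. Such on-and-off values were seen in its overexpression libraries as well, with 14.1, 0 and 0 FPKM in bHLH58-OE and 0, 6.82 and 11.1 in bHLH151-OE. A listed 0 may be an estimate that failed, so such IDs are given by library only.

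PAxG07Ag0099800 was at 0, 8.28 and 8.20 FPKM in WT, 0, 7.62 and 0 in bhlh58-KO and 0 in all double-knockout libraries, beside 3.10, 5.55 and 3.79 in bhlh151-KO. PAxG07Gg0067200 was at 0, 1.85 and 1.17 FPKM in WT, at 0 in every bhlh58-KO and double-knockout library, and at 1.03, 1.07 and 1.40 in bhlh151-KO. NewGene_7154 was at 0.290, 0.306 and 0 FPKM in WT and at 0 in bhlh151-KO, against 3.58, 1.67 and 2.10 in bhlh58-KO and 1.60, 1.20 and 1.91 in the double knockout. PAxG02Ag0040600, the fifth member with a whole group at 0, is described with the overexpression lines. These 5 IDs were chosen for description after their values had been seen. Of these 5, only NewGene_7154 kept the bHLH58-loss libraries apart from WT.

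The members were noisier than most IDs. The residual SD of log2(FPKM + 1) within groups had a median of 0.22 over the 55 members and of 0.15 over all IDs tested, and it reached 1.73 in PAxG04Gg0197800.

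Most members also lay on the same side of WT in both overexpression lines. Relative to WT, 36 of the 38 higher members had a higher mean in bHLH58-OE, with a median log2 difference of 0.52, and 34 had one in bHLH151-OE, with a median of 0.61. Over all IDs tested the medians were 0.00 and -0.09, and 20477 of 40951 IDs had a higher mean in bHLH58-OE and 15318 in bHLH151-OE. Of the 17 lower members, 15 had a lower mean in bHLH58-OE (median -0.39) and 14 in bHLH151-OE (median -0.50). Over all IDs tested, 20471 and 25628 had a lower mean in these lines. The same WT libraries helped to choose the members, so these counts and medians are a description. The member counts for bHLH58-OE were the same under median-of-ratios, quantile and TPM scaling. Under the first 2 of these scalings, 35 higher members were above WT in bHLH151-OE. WT and bhlh151-KO were the 2 lowest group means for 30 of the 38 higher members and the 2 highest for 12 of the 17 lower members. Loss of bHLH58 here names the knockouts the rule used, and whether it caused the changes was not tested. These 30 and 12 count the order of group means, which the rule fixes in part. Every library of the other 4 groups lay beyond every WT and bhlh151-KO library for 11 of the 38 higher and 2 of the 17 lower members. The share of all IDs tested with this pattern was not counted. The rule fixes this pattern in part too, so nothing is read from these counts.

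**Figure D4:**
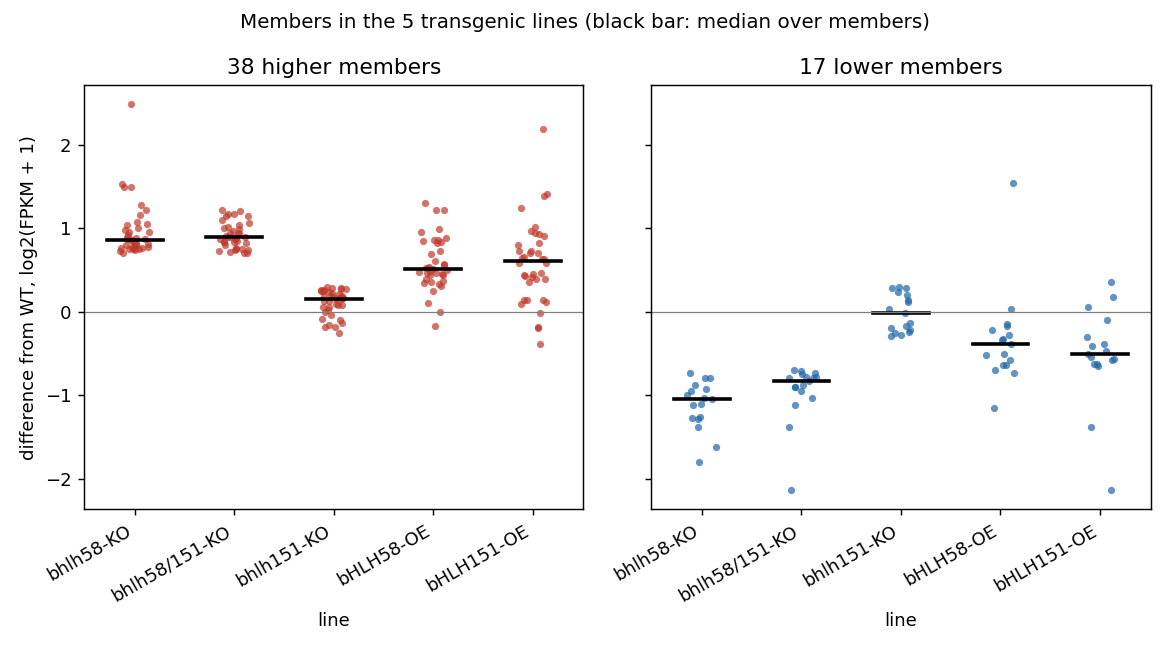
Difference from WT of each member in the 5 transgenic lines, as log2(FPKM + 1); points are members and black bars their medians, with the 38 higher members on the left and the 17 lower ones on the right. The bars of the overexpression lines lie on the same side of 0 as those of the bHLH58-loss lines, at 0.52 and 0.61 for the higher and -0.39 and -0.50 for the lower members. All differences share the WT libraries, which also helped to choose the members.

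In bHLH58-OE, 15 of 38 higher members were called above WT at a limma adjusted p under 0.05 (3.3% of all IDs tested were called above, 2.07% below and 5.37% in all) and 0 below it. Of the lower members, 4 of 17 were called below WT and 0 above it. In bHLH151-OE, 24 of 38 higher members were called above WT and 0 below, where 11.5% of all IDs were called above, 20.4% below and 32% in all. Of the lower members 8 of 17 were called below WT and 1 above. The same WT libraries helped to choose the members and serve as the control here, so these counts are a description. The 19 calls in bHLH58-OE became 12 without bHLH58-OE replicate 2 and 12 without WT replicate 3. Of all calls in bHLH151-OE against WT, 63.9% were lower as deposited, 43.6% after median-of-ratios scaling and 53.1% after quantile normalization, while the members called were 25 higher and 8 lower as deposited, 26 and 5, and 27 and 6.

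The size of the shift differed between members. Both overexpression lines were at least 0.7 above WT for 5 higher members, bHLH58-OE only for 7, bHLH151-OE only for 8 and neither for 18. Of all 40951 IDs tested, 363 were at least 0.7 above WT in bHLH58-OE and 1476 in bHLH151-OE, and 217 and 1330 were at least 0.7 below it. For 22 of the 38, bHLH58-OE lay 0.3 to 0.7 above WT. Among the lower members, 13 of 17 were under 0.7 below WT in both overexpression lines. The most changed group mean was that of bhlh58-KO for 18 higher members, of the double knockout for 16 and of bHLH151-OE for 4. For the lower members it was bhlh58-KO alone in 14 of 17 cases, with groups tied at 0 in the other 3. The rule asked for large differences from WT in both bHLH58-loss lines, which fixes this order in part. The same WT libraries also helped to choose the members, so nothing is read from the counts in this paragraph.

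Few members lay 0.3 or more from WT in bHLH58-OE on the side opposite to the bHLH58 knockouts. Of the 40951 IDs tested, 35291 lay under 0.3 from WT in bHLH58-OE. The same WT libraries also helped to choose the members, so nothing about the members is read from this. No higher member lay 0.3 or more below WT in bHLH58-OE, and the only lower member that lay 0.3 or more above it was PAxG02Ag0040600. That ID was at 5.56, 6.97 and 7.25 FPKM in bHLH58-OE and listed at 0 in every library of bhlh58-KO, the double knockout and bHLH151-OE. Its WT libraries were uneven at 3.92, 0 and 2.59 FPKM, as were those of bhlh151-KO at 4.51, 0 and 4.80. Its bHLH58-OE libraries lay wholly above WT, but the difference was not called (limma adjusted p = 0.17).

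The one contrast that uses no library of the rule's differences is bHLH58-OE against bHLH151-OE. There 16 of the 55 members were called at a limma adjusted p under 0.05, or 10 of 38 higher and 6 of 17 lower members, where 24.5% of all IDs tested were called. The share among members was near that of the table, so it is not a result about the members. Of the higher members 5 were called higher in bHLH58-OE (15.9% of all IDs) and 5 lower (8.64%), and of the lower members 3 were called each way. The median difference, bHLH58-OE minus bHLH151-OE, was -0.11 for the higher members and 0.02 for the lower ones, beside 0.09 for all IDs tested. Under median-of-ratios scaling these medians were -0.17, -0.07 and 0.00. Of all calls 35.3% were lower in bHLH58-OE as deposited, 59% after median-of-ratios scaling and 49.5% after quantile normalization, and the members called were 8 higher and 8 lower, 7 and 10, and 8 and 9.

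Single members did part the 2 overexpression lines. PAxG05Gg0022100, a higher member, was at 7.59, 6.66 and 6.75 FPKM in bHLH58-OE and at 2.62, 2.32 and 3.87 in bHLH151-OE. The groups did not overlap, and the log2 difference was 1.04 (SE 0.13, limma adjusted p = 6.09e-06). The bHLH151-OE libraries were around those of WT (3.41, 3.45 and 3.36 FPKM), while bHLH58-OE stood near the bHLH58-loss lines, with 7.70, 9.54 and 9.36 FPKM in bhlh58-KO and 6.74, 6.81 and 5.31 in the double knockout. In bhlh151-KO it was at 3.94, 3.79 and 3.34 FPKM. For this ID the knockout and the overexpression of bHLH58 lay on 1 side, and WT with both bHLH151 lines on the other.

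PAxG02Ag0040600, with the values given above, was also called higher in bHLH58-OE (limma adjusted p = 0.00241), and no fold is given because bHLH151-OE was listed at 0. On the lower side, PAxG17Ag0195200 was at 26.4, 34.2 and 26.3 FPKM in bHLH58-OE and at 44.1, 42.1 and 44.3 in bHLH151-OE, with no overlap (log2 difference -0.58, SE 0.10, limma adjusted p = 0.000407). PAxG01Ag0295200 was at 6.46, 5.75 and 6.21 FPKM in bHLH58-OE and at 7.92, 8.73 and 11.7 in bHLH151-OE, again without overlap (-0.54, SE 0.18, limma adjusted p = 0.0371). That call was lost without bHLH151-OE replicate 3 (limma adjusted p = 0.168) and without any other library of the 2 groups except bHLH151-OE replicate 1 (0.0573 to 0.103). It was also lost with a pseudocount of 0.1 (0.0596), after rescaling to TPM (0.0543) and with no filter (0.0682).

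NewGene_1425 and PAxG05Ag0042200 were not called between these 2 lines. For NewGene_1425 the difference was -0.02 (SE 0.11, limma adjusted p = 0.90), and for PAxG05Ag0042200 it was -0.18 (SE 0.12, limma adjusted p = 0.274). PAxG12Gg0004700 was lower in bHLH58-OE than in bHLH151-OE by -0.53 (SE 0.17, limma adjusted p = 0.0311), and this call was lost without bHLH58-OE replicate 1 (0.135), bHLH151-OE replicate 1 (0.0569) or bHLH151-OE replicate 2 (0.112) and after quantile normalization (0.0754). PAxG03Ag0056200 was higher in bHLH58-OE by 0.26 (SE 0.09, limma adjusted p = 0.0476), a call lost without any 1 of the 6 libraries (0.0505 to 0.167) and after median-of-ratios scaling (0.275). The calls of PAxG05Gg0022100 and PAxG17Ag0195200 held in all 15 alternatives run and that of PAxG02Ag0040600 in the 14 that tested it. A p above the threshold does not show that the lines were alike.

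**Figure D5:**
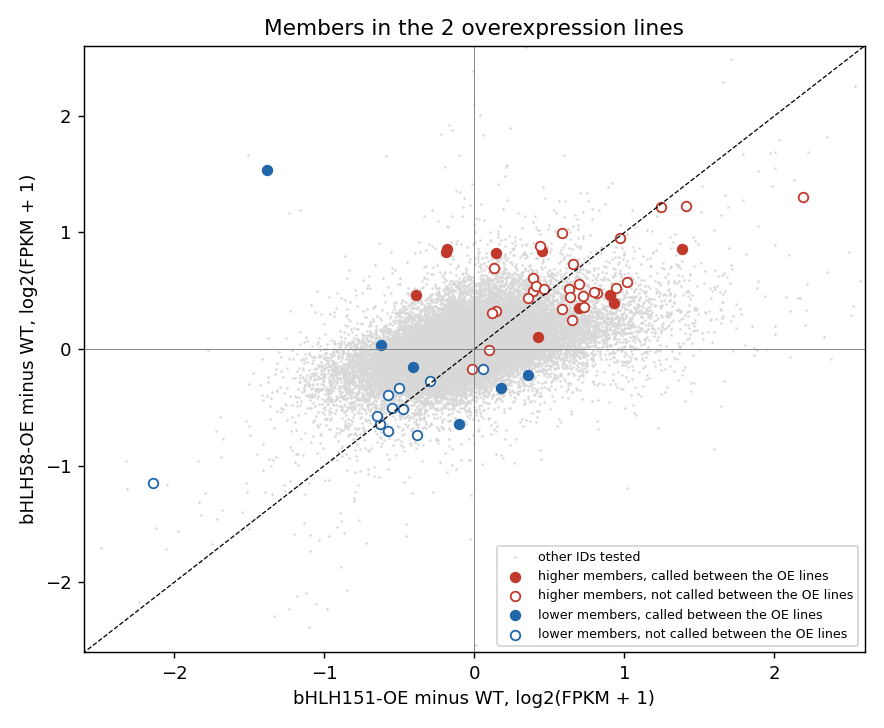
Difference from WT in bHLH151-OE (x axis) and bHLH58-OE (y axis), both as log2(FPKM + 1), for members (red higher, blue lower; filled where called between the 2 lines) and other IDs tested (grey; axes cover the range of the members). The dashed line marks equal differences, most red points lie in the upper right and most blue points in the lower left, and 16 of 55 are filled.

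The double knockout was also set beside bhlh58-KO. Between the double knockout and bhlh58-KO, 7 of 55 members were called at a limma adjusted p under 0.05, beside 9.09% of all IDs tested (3.81% higher and 5.27% lower in the double knockout), and since the rule chose members for lying on the same side of WT in both groups, nothing about the members is read from this count or from the differences that follow. Of these, 1 higher and 4 lower members were higher in the double knockout and 2 higher members were lower in it. The count was 4 without double-knockout replicate 1 or without any 1 of the bhlh58-KO libraries, and 2 without double-knockout replicate 3. Of all calls 58% were lower in the double knockout as deposited, 35.7% after median-of-ratios scaling and 50% after quantile normalization, and the members called were 5 higher and 2 lower, 6 and 0, and 5 and 2.

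PAxG01Ag0295200 had the widest gap between these knockouts among the members called. It was at 10.5, 9.95 and 9.96 FPKM in WT, 2.55, 1.42 and 2.74 in bhlh58-KO, 5.48, 3.93 and 8.01 in the double knockout and 12.7, 11.6 and 13.7 in bhlh151-KO. The double knockout lay wholly between WT and bhlh58-KO (log2 difference from bhlh58-KO 1.05, SE 0.18), and bhlh151-KO lay wholly above WT. PAxG17Ag0195200 showed the same order of the 4 groups with a difference of 0.49 (SE 0.10). On the higher side PAxG05Gg0022100 and NewGene_1425 were lower in the double knockout than in bhlh58-KO, by -0.44 (SE 0.13) and -0.39 (SE 0.11). Of the 17 lower members, 14 had a higher mean in the double knockout than in bhlh58-KO (13 after rescaling to TPM), 1 had a lower one and 2 were listed at 0 in every library of both. The median difference over the 17 was 0.08. The 38 higher members were split 18 above and 20 below, or 21 and 17 after median-of-ratios scaling.

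The IDs themselves carry a number, a letter A or G and a counter, whose meaning the files do not state. Among members 25 (45.5%) had the letter A and 23 (41.8%) the letter G, close to the 47.2% and 46.1% of all IDs tested. IDs of the form NewGene made up 7 members (12.7%), all of them higher members, beside 6.66% of all IDs tested. The number 01 was carried by 6 of the 17 lower members (35.3%) and by 2 of the 38 higher ones (5.26%), beside 11.7% of all IDs tested. Among the 1006 IDs at least 0.7 from WT on the same side in both bHLH58-loss lines it was 15.1%. Members carried 16 different numbers, of which 01 was singled out here. These shares are a description and were not tested.

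No 2 members had neighbouring IDs. The closest were PAxG01Gg0291700 and PAxG01Gg0292200, which lie 3 IDs apart in the table and are both lower members. Across letters, 3 pairs of members shared a number and had counters at most 30 steps of 100 apart, a limit chosen after the values were seen. PAxG06Ag0143700 and PAxG06Gg0142100 formed one such pair, with differences from WT of 0.88 and 1.05 in bhlh58-KO and of 0.80 and 0.90 in the double knockout, beside 0.15 and -0.16 in bhlh151-KO. PAxG06Ag0143700 was at 1.68, 1.94 and 1.76 FPKM in WT and at 3.48, 4.25 and 4.83 in bhlh58-KO, and PAxG06Gg0142100 at 4.09, 4.99 and 4.38 and at 10.8, 10.9 and 9.46. The second pair, PAxG01Ag0116700 and PAxG01Gg0115200, differed from WT by 0.76 and 0.87 in bhlh58-KO and by 1.01 and 1.04 in the double knockout. The third pair, PAxG01Ag0295200 and PAxG01Gg0292200, differed from WT by -1.81 and -1.03 in bhlh58-KO and by -0.75 and -0.95 in the double knockout. In bhlh151-KO this pair was on opposite sides of WT, at 0.296 and -0.248. The IDs of each pair were on the same side of WT in both bHLH58-loss lines. Where such IDs are near-identical copies, the authors' processing could split or share reads between them, so their values may not be independent.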

How the data were processed

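The deposited table gives 1 FPKM value per ID and library for 71159 IDs in 18 root libraries, and FPKM is the unit the deposited table's name states. The submitters' processing notes name DESeq2 without a role. Aligner, quantifier, build and annotation are not given in the sources at hand. A search for whole-read steps in IDs under 0.3 FPKM over 153 library pairs put at most 1.58% of ratios in 1 bin, so depth stayed unknown and no count test was run. No 2 libraries were identical.

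Values were taken as log2(FPKM + 1), which understates differences of low IDs. The rule was applied to 40951 IDs. One limma fit (limma 3.58.1, R 4.3.3; eBayes with trend and robust estimation) with 6 group means and 12 residual degrees of freedom gave 7 comparisons, two-sided, with Benjamini-Hochberg adjustment over all IDs tested within a comparison, and the procedure was tested on simulated data. FPKM means are over 3 libraries.

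Members and comparisons were chosen with earlier results of these data known. Named IDs were at most 2 each way per criterion: the largest smaller knockout difference, the largest called difference between the overexpression lines or the bHLH58-loss lines, opposition to the knockouts in bHLH58-OE, and abundance. All but abundance needed the higher group to average 5 FPKM or more (for higher members in the first, in both bHLH58-loss lines), and all but abundance and the bHLH58-loss lines needed groups that do not overlap. Alternatives were a pseudocount of 0.1, 3 scalings, 2 filters, other thresholds, a replicate block, other fits and leaving out each library.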

Additional observations from a re-analysis of the deposited data

Results flagged for a closer look

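The effects of the 2 overexpression lines against WT differed for 4 named members, tested as bHLH58-OE against bHLH151-OE, in which WT cancels. The effect of bHLH58-OE exceeded that of bHLH151-OE by 1.04 on the log2 scale for PAxG05Gg0022100. It was below it for PAxG17Ag0195200 (-0.58) and PAxG01Ag0295200 (-0.54), the latter call being lost in 8 of the 15 alternatives run. For PAxG02Ag0040600 the limma adjusted p was 0.00241, with every bHLH151-OE library listed at 0. Groups of 3 libraries were not searched for outlying libraries.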

How the results depend on the processing

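The number of members, 55 (38 higher, 17 lower), moved with the rule: 119 (84 and 35) with a pseudocount of 0.1, 92 (64 and 28) after rescaling to TPM, 21 (13 and 8) at a mean of at least 5 FPKM, 10 (6 and 4) at a limit of 1.0, 214 (150 and 64) at a limit of 0.5 and 33 (25 and 8) at a limit of 0.2 for bhlh151-KO. Median-of-ratios scaling left 10 lower members. Leaving out 1 library gave 49 to 61 members, 35 to 47 higher and 12 to 22 lower. Members called between the overexpression lines (16) ran from 11 to 14 with a library left out and from 11 to 17 under the other alternatives. Calls against WT ran from 12 to 19 for bHLH58-OE and from 28 to 36 for bHLH151-OE with a library left out, and the latter were 16 at a mean of at least 5 FPKM, where only 21 members were tested. Calls between the double knockout and bhlh58-KO ran from 2 to 7, and were 4 with no filter. Some of these settings used fewer IDs or libraries, and the cause of the moves was not tested. Between the overexpression lines, 3 differences that were not called changed sign: that of NewGene_1425 was 0.076 after quantile normalization and ran from -0.083 to 0.065 with a library left out, that of PAxG01Gg0292200 from -0.22 to 0.067 and that of PAxG01Gg0291700 from -0.29 to 0.019. Same-numbered libraries did not deviate together (correlations of -0.17 to 0.074, 0 of 45 over 0.1; best with their own number in 32 of 90 cases), and the fit with replicate block called 16, 19, 33 and 6 members in these 4 comparisons, without PAxG03Ag0056200 (limma adjusted p = 0.0635). Unknown depth limits what low IDs can show.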
